A study of Mus musculus with 30 samples.

Results

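Of 69316 accessible regions (peaks) measured in mouse CD4+ T cells, 448 were more open in effector than in central regulatory T cells without a matching gain in effector over naive conventional T cells. These Treg-restricted effector sites are described here. They were chosen from the mean log2(score + 1) of each group's 2 libraries in a table of normalized peak scores for 26 libraries. A site had to be at least 1.5 higher in effector Treg (eTreg) than in central Treg (cTreg), no more than 0.5 higher in effector (Teff) than in naive (Tnaive) conventional cells, and at least 1 higher in eTreg than in Teff. The eTreg, cTreg, Teff and Tnaive libraries chose the sites, so their values are given as a description with no test.

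Regulatory T cells (Treg) restrain immune responses and are specified by Foxp3, a forkhead transcription factor. Some of them mature from a resting, lymph-node-homing central state into an effector state that can enter tissues. BATF, an AP-1 family factor that binds DNA with JUN proteins and often with IRF4, is known to promote this maturation. In ATAC-seq, the Tn5 transposase cuts accessible DNA, and accessible regions away from gene starts often act as enhancers.

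The study asked how Foxp3 and BATF shape the accessible regions of effector Treg, with ATAC-seq and omniATAC-seq (a variant with another lysis) on cells sorted from mouse lymph nodes and spleen. The groups used here hold 2 libraries each, and in all of them hCD2 expressed from the Foxp3 locus marks Treg. From C57BL6/J Foxp3-IRES-hCD2 mice came eTreg (CCR7lo CD62Llo), cTreg (CCR7hi CD62Lhi CD44lo), their hCD2- counterparts Teff and Tnaive, unsplit WT Treg (CD4+hCD2+) and unsplit WT Tconv (CD4+hCD2-). BATFKO Treg came from Foxp3-IRES-hCD2.Batf-/- mice. Foxp3R397W Treg carry a substitution in Foxp3 on the hCD2-tagged allele, opposite a Foxp3-IRES-GFP allele, and were sorted as hCD2+ GFP- cells; their control carried a wild-type hCD2-tagged allele instead, so both hosts also held GFP+ Treg with normal Foxp3. The last 4 groups were Treg of genotype Foxp3KO-IRES-hCD2.Batf-/- (DKO Treg), which lack both factors, after retroviruses for Foxp3 and BATF together, BATF, Foxp3 or mock, sorted for CD45.2, GFP, Thy1.1, CD4 and hCD2. Ages are not given. No label ties libraries to separate animals or cultures, so the p-values describe the spread between libraries, which could be technical. In such bulk samples, fewer cells with an open site cannot be told apart from a less open site in each cell.

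Names of 12 libraries differ between the deposited tables. The eTreg, cTreg, Tnaive, Teff, Foxp3R397W and control pairs of the 26-library table appear in a second table, of 22 libraries, under the names of a WT Treg pair, Foxp3R397W, another WT Treg pair, Foxp3KO, eTreg and cTreg. The names of the 26-library table were used, and marker peaks were examined under them. A peak at Foxp3 scored 381 and 363 in eTreg and 436 and 370.3 in cTreg, but 7.84 and 7.83 in Teff and 1.28 and 9.07 in Tnaive, so the last pair, WT Treg in the other table, lacked this Treg mark. Klrg1 is an effector receptor gene. Its peak with the widest range over the eTreg, cTreg, Teff and Tnaive libraries scored 162 and 101 in eTreg, against 6.22 and 4.41 in cTreg. This peak scored 3.94 and 3.53 in Foxp3R397W Treg and 29.3 and 27.4 in their control. Other peaks at effector genes were mixed. The highest-scoring peaks at Icos (348 and 337 in eTreg, 568 and 594 in cTreg) and Prdm1 (623 and 715, 718 and 785) were lower in eTreg. Those at Klrg1 and Tigit were higher in eTreg, as was the widest-range peak at each of these genes. A peak at Ccr7, a gene whose product was a sorting marker, scored 132 and 142 in eTreg, against 452 and 424 in cTreg, and 791 and 824 in Foxp3R397W Treg (eTreg in the other table) and 712 and 499 in their control. Reads in peaks per library ran from 3716499 to 25462278.

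Peaks at genes of other cell types were present in all groups. Over 35 peaks at myeloid genes (7 of 10 listed genes had a peak) summed scores were 2728 and 2532 in eTreg against 1912 and 1736 in cTreg, and 4421 and 5205 in DKO Treg with both factors against 3510 and 4180 with mock virus. Over 44 peaks at CD8 and NK cell genes (10 of 10) the sums were 2477 and 2408 in eTreg against 3938 and 3902 in cTreg, and 3277 and 3396 with both factors against 4060 and 4365 with mock virus. Over 25 peaks at B cell genes (7 of 10) they were 1354 and 1597 in eTreg against 1504 and 1868 in cTreg, and 1211 and 1310 with both factors against 931 and 947 with mock virus. In the other contrasts the CD8 and NK cell sums were 3095 and 2994 in BATFKO Treg against 2614 and 2661 in WT Treg, 4238 and 4120 in Foxp3R397W Treg against 3768 and 3402 in their control, and 2614 and 2661 in WT Treg against 4570 and 4306 in Tconv. Over 205 peaks at naive and central T cell genes (13 of 13) the sums were 25903 and 31995 with both factors against 36650 and 49007 with mock virus, 34401 and 31885 in Foxp3R397W Treg against 28809 and 25346 in their control, and 20001 and 22229 in WT Treg against 24792 and 26032 in Tconv. The part of these lists in the results was not tested.

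Few of the sites lay at the gene starts of the RefSeq promoter table. That table does not hold every start, since the nearest one to a site inside Rad21 was 5286537 bp away. Shares at starts may therefore be too low. Of the 448, 246 (54.9%) lay inside a protein-coding gene body, 150 (33.5%) within 100 kb of one and 52 (11.6%) farther away, against 62.1%, 31.9% and 5.96% of all peaks. Within 500 bp of a start in the RefSeq promoter table lay 6 sites (1.34%), against 13% of all peaks, 3.57% of the 6380 sites that both lineages gained (at least 1.5 on both effector steps) and 0.631% of the 634 sites that conventional cells alone gained by the mirrored rule. Promoter windows, 250 bases before to 50 after a start (RefSeq, GRCm38.p6, the mm10 build), are shown for 3 genes whose start a site covers, since sequence was at hand only for promoters. Tlr1 encodes a receptor for bacterial lipopeptides, Slc2a12 a glucose transporter and Zfp111 a zinc finger protein. The sites cover 300 of the 300 bases of the Tlr1 window, 171 of the Slc2a12 window and 194 of the Zfp111 window. The motif marked for Zfp111 may therefore lie partly or wholly outside its site. Capitals mark the ETS motif CCGGAAG and the NFAT motif TGGAAA, either strand (TTTCCA is the NFAT motif on the other strand).
Tlr1, chr5:64932650-64932949, minus strand: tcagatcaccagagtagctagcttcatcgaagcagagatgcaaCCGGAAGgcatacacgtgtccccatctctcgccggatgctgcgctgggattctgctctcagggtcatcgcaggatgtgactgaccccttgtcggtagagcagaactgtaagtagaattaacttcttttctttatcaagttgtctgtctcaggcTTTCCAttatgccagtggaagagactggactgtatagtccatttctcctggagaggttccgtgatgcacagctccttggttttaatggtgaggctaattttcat
Slc2a12, chr10:22644761-22645060, plus strand: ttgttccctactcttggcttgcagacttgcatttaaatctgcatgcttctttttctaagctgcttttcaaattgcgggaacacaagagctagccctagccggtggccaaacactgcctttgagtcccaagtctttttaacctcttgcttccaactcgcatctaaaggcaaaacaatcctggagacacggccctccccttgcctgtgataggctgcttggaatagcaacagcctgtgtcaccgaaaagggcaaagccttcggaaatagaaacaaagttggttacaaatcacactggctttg
Zfp111, chr7:24208100-24208399, minus strand: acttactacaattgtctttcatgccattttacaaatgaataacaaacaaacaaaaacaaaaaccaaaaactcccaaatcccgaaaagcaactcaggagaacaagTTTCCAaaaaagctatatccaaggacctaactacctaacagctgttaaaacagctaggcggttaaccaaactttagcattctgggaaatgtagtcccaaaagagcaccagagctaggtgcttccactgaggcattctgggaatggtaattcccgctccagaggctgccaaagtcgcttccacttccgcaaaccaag

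The Tlr1 site scored 44.3 and 45.7 in eTreg and 16 and 7.72 in cTreg. The Slc2a12 site scored 73.1 and 62.0 in eTreg and 11.6 and 35.3 in cTreg, and the Zfp111 site 45.4 and 50.3 in eTreg and 8.89 and 12.1 in cTreg. In all 3 both eTreg libraries were the higher ones. Of the 5 promoter windows that a site overlapped (the others are those of Ccl20, a chemokine gene, and Gm42064), 1 held the ETS motif and 2 the NFAT motif, while none held the AP-1 motif TGANTCA, the forkhead motif TGTTTAC, the RUNX motif TGTGGTT or a composite of AP-1 and IRF motifs. Of 32851 promoter windows, 8.86% held the ETS, 21.4% the NFAT, 7.81% the AP-1, 3.65% the forkhead and 5.27% the RUNX motif. Of the 11584 windows that overlap a peak, the shares were 19.2% for ETS, 15.8% for NFAT, 4.91% for AP-1, 2.52% for forkhead and 4.01% for RUNX. In DKO Treg the Tlr1 site scored 42.7 and 42.6 with both factors, 47.0 and 33.6 with BATF, 44.1 and 23.0 with Foxp3 and 34.8 and 41.1 with mock virus, and these groups overlapped (both over mock log2 change 0.17, SE 0.47, adjusted p = 0.84, limma).

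In the groups that the rule held low the sites were weak peaks. Their median score was 34.3 and 33.9 in eTreg, against 6.22 and 6.61 in cTreg, 6.97 and 6.85 in Teff and 6.39 and 7.77 in Tnaive. In reads, the medians were 31 and 29 per site in eTreg and 7 and 6 in cTreg. Their mean score over all libraries had a median of 13.3, against 25.1 for sites gained by both lineages, 14.3 for sites gained by conventional cells alone and 48.6 for all peaks. At the first threshold, a site at Chmp4c stood just inside (means 158 in eTreg and 56.4 in cTreg) and one at Adgrv1 just outside (41.9 in eTreg and 13.9 in cTreg). At the second, a site at Patj was just inside (3.70 in Teff and 2.56 in Tnaive) and one at Sae1 just outside (26.2 in Teff and 18.7 in Tnaive). At the third, a site at Rhod was just inside (27.8 in eTreg and 14.1 in Teff) and one at Cd207 just outside (30.7 in eTreg and 15.3 in Teff). Shifting all 3 thresholds by 0.25 gave 199 sites in the stricter and 924 in the looser direction.

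**Figure D1:**
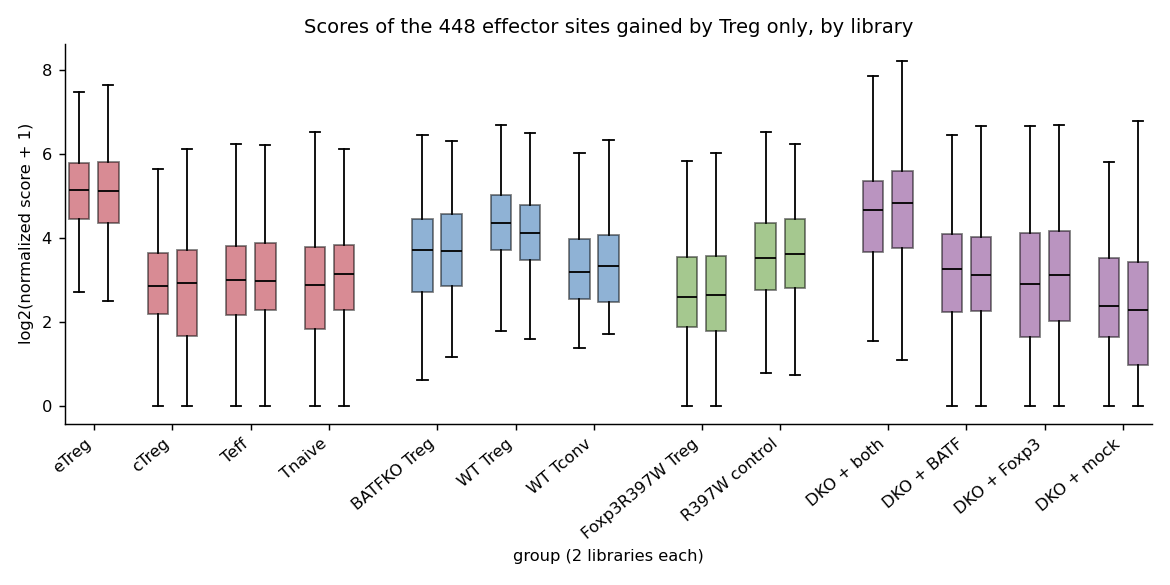
Box plots of log2(normalized score + 1) at the 448 Treg-restricted effector sites in each of 26 libraries (line, median; box, quartiles; whiskers, farthest value within 1.5 quartile ranges; sites beyond are not drawn). The first 4 groups chose the sites; among the others the median score is highest in DKO Treg with both factors (24.3 and 27.6) and in WT Treg (19.6 and 16.3).

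The largest steps from cTreg to eTreg, among sites with an eTreg score above the median of the sites, stood at genes of varied roles. A site 27.8 kb from E2f7, which encodes an atypical E2F repressor of cell cycle genes (mm10 chr10:110717191-110717591), scored 162 and 139 in eTreg, against 0.889 and 2.20 in cTreg, 10.5 and 1.96 in Teff and 6.39 and 5.18 in Tnaive. A site 63.3 kb from Calcrl, a receptor gene for the peptides CGRP and adrenomedullin, scored 124 and 118 in eTreg and 7.11 and 5.51 in cTreg. A site in Timd2, a TIM family surface protein gene, scored 52.1 and 48.0 in eTreg and 1.78 and 3.31 in cTreg. In these 3 the cTreg pair was near 0 or far below the eTreg pair. A site in Adamts12, which encodes a secreted metalloprotease, scored 39.9 and 31.6 in eTreg and 3.56 and 0 in cTreg, but 3.67 and 4.08 in WT Treg and at most 1.15 in any DKO library, and passed no test. The same rule also took sites at Col23a1, Tbca, Pnkd, Smco4 and Bclaf3.

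Peaks at genes that the lists used here tie to Treg identity, effector Treg or cytokines were sites about as often as peaks at protein-coding genes as a whole (0.607% of 65186 peaks). Over 10 lists there were 7 sites: Nrp1 and Itgae among Treg identity genes (2 of 317 peaks, 0.631%), Il1rl1 and Ahr among effector and tissue Treg genes (2 of 360, 0.556%), Il1r2 and Socs2 among cytokine and receptor genes (2 of 251, 0.797%) and Itgam among myeloid genes (1 of 35). No site stood among 329 peaks at AP-1 and TCR-induced factor genes, 152 at TNF receptor and costimulation genes, 205 at naive and central T cell genes, 25 at B cell genes, 44 at CD8 and NK cell genes or 35 at housekeeping genes. In all, 365 genes had a site, 25 of them 2 sites and 3 of them (Hapln1, Ank and Ctsh) 3 sites. The share of a chromosome's peaks ran from 0.286% on chromosome 17 to 1.38% on chromosome 13, which held 45 sites.

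BATFKO Treg were set against WT Treg to ask whether the sites are open without BATF. Median scores were 12.2 and 12 in BATFKO Treg and 19.6 and 16.3 in WT Treg, and 344 sites were below and 104 above 0 (median log2 change -0.48; all peaks 0.03). Only 7 sites (1.56%) passed the test, all lower in BATFKO Treg, and none was higher; the background over all peaks was 1.43% lower and 0.062% higher. At an unadjusted p under 0.05 there were 90 of the 448 sites and 5829 of all 69316 peaks. Changes here and below are differences of log2(score + 1), which understate the change of low peaks, and adjusted p-values are Benjamini-Hochberg values from limma over all peaks. Of the sites gained by both lineages, 11.1% were lower (median -0.55), and of those gained by conventional cells alone 0 (45 of these sites had an unadjusted p under 0.05). Differences between these sets were not tested. Over all peaks 43 were higher and 989 lower, but 506 and 2031 with quantile scaling.

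The E2f7 site fell to 3.88 and 5.05 in BATFKO Treg, against 53.8 and 32.7 in WT Treg (log2 change -2.98, SE 0.62, adjusted p = 0.0059). A site in Arhgap20 scored 8.30 and 7.58 in BATFKO Treg and 70.9 and 42.9 in WT Treg (-2.65, SE 0.63, adjusted p = 0.020). A site in Med12l, a paralogue of a Mediator subunit gene, scored 3.88 and 5.05 in BATFKO Treg and 22 and 30.6 in WT Treg (-2.31, SE 0.57, adjusted p = 0.029). In these 3 sites the groups were far apart. A site 21.2 kb from Trib2, a pseudokinase gene, scored 3.32 and 3.79 in BATFKO Treg and 23.2 and 19.4 in WT Treg (-2.29, SE 0.59, adjusted p = 0.040). A site in Ppp1r12b, a myosin phosphatase subunit gene, scored 15.5 and 26.5 in BATFKO Treg and 91.7 and 62.3 in WT Treg (-1.85, SE 0.44, adjusted p = 0.023). The count rests on each library: it fell with any 1 library of the compared groups left out. Calls of lower peaks over all peaks fell in those fits too. On reads recovered from the scores, edgeR called 30 sites and DESeq2 15, with 1 of them higher in either. The background was 2.54% lower and 0.224% higher with edgeR, and 2.18% lower and 0.19% higher with DESeq2.

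Foxp3R397W Treg were set against their control to ask whether the sites depend on the substituted residue of Foxp3. Median scores were 5.07 and 5.30 in Foxp3R397W Treg and 10.5 and 11.4 in the control, and 399 sites were below 0 (median log2 change -0.91; all peaks 0.03). Of the 448, 34 (7.59%) were lower and none higher, with a background of 1.85% lower and 0.776% higher. Of the sites gained by both lineages 13.4% were lower (median -0.86), and of those gained by conventional cells alone 0.158%. Peaks at Klrg1 and Ccr7 moved along with this contrast, as given above. The highest-scoring peaks at Icos (392 and 385 in Foxp3R397W Treg, 333 and 297 in the control) and Prdm1 (465 and 460, 409 and 414) were higher in Foxp3R397W Treg. Those at Klrg1 and Tigit were lower there. The part of these markers was not tested. The count of sites fell with any 1 library of these groups left out, and so did the calls over all peaks. When these groups were fitted alone the count was 115, with 114 of them lower and a background of 6.01% lower and 3.47% higher.

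A site in Fnip2, which encodes a folliculin-interacting protein, scored 0.563 and 0.706 in Foxp3R397W Treg and 19.2 and 20.7 in the control (log2 change -3.68, SE 0.58, adjusted p = 0.00050). A site 10.1 kb from Rad51b, a DNA repair gene, scored 10.7 and 16.2 in Foxp3R397W Treg and 72.8 and 68.2 in the control (-2.33, SE 0.43, adjusted p = 0.0024). A site 16.3 kb from the gene model Gm52006 scored 19.1 and 15.9 in Foxp3R397W Treg and 91.3 and 56.2 in the control (-1.98, SE 0.36, adjusted p = 0.0023). The groups did not overlap at any of them. The Fnip2 site scored 19.9 and 22.7 in BATFKO Treg and 20.8 and 26.5 in WT Treg, which did overlap. Sites in Col12a1, a collagen gene (7.32 and 4.94 in Foxp3R397W Treg, 26.1 and 22.1 in the control), and Pla1a, a phospholipase gene (6.19 and 6.001 in Foxp3R397W Treg, 30.4 and 20.7 in the control), were also lower. In all, 312 sites were below 0 in both mutants, 32 in BATFKO Treg alone, 87 in Foxp3R397W Treg alone and 17 in neither. This joint count and the next were not taken for other peaks. Of all 69316 peaks, 32094 were below 0 in BATFKO Treg and 32045 in Foxp3R397W Treg. Of the 6380 sites gained by both lineages, 4983 and 5805 were below 0, so a fall in either mutant was not particular to these sites. Just 2 passed the test in both, those at E2f7 (1.13 and 0.706 in Foxp3R397W Treg, 10.5 and 10.7 in the control) and Med12l (1.69 and 4.94 in Foxp3R397W Treg, 26.8 and 21.4 in the control).

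**Figure D2:**
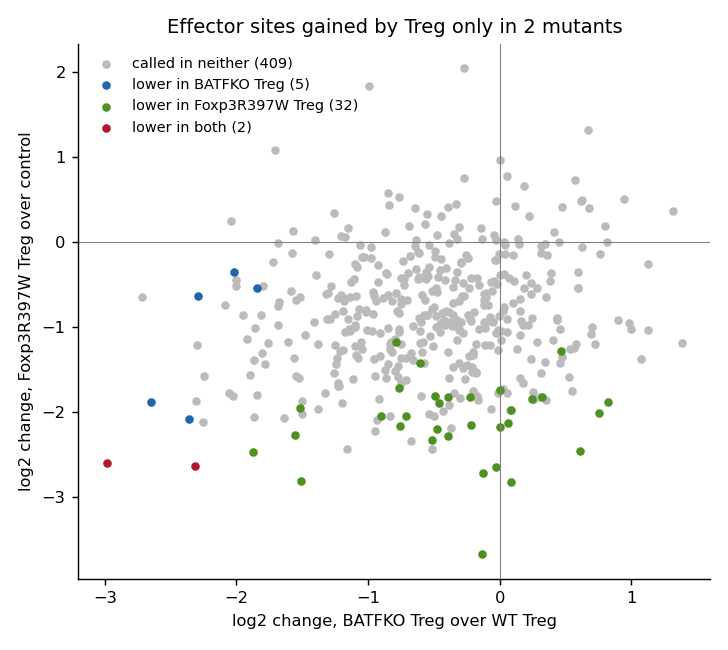
Each point is 1 of the 448 Treg-restricted effector sites, with its log2 change in BATFKO Treg over WT Treg on the x axis and in Foxp3R397W Treg over the control on the y axis. Most points (312) lie below 0 on both axes. Joint counts were not taken for other peaks, and most sites gained by both lineages were also below 0 in either mutant. Here 5 sites were called lower in BATFKO Treg alone, 32 in Foxp3R397W Treg alone, 2 in both and 409 in neither.

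Unsplit WT Treg were set against unsplit WT Tconv to ask whether the sites also mark the whole Treg pool. Median scores were 19.6 and 16.3 in WT Treg and 8.16 and 9.09 in Tconv, and 381 sites were above 0 (median log2 change 0.86; all peaks 0.01). Higher in WT Treg were 98 sites (21.9%, background 10.1%) and lower none (background 9.92%). At an unadjusted p under 0.05 in either direction there were 173 of the 448 sites and 21444 of all 69316 peaks. Called higher were 91 sites by edgeR (background 9.52%) and 67 by DESeq2 (background 8.24%), with none lower. Of the sites gained by both lineages 38.9% were higher (median 1.05), and of those gained by conventional cells alone 18.1% were lower (median -0.82). Without WT Treg 1 the count was 42.

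The Arhgap20 site scored 70.9 and 42.9 in WT Treg and 1.63 and 2.27 in Tconv (log2 change 4.26, SE 0.63, adjusted p = 8.9e-06). The Timd2 site scored 44.0 and 24.5 in WT Treg and 3.27 and 2.27 in Tconv (3.18, SE 0.46, adjusted p = 7.8e-06). A site 10.6 kb from Ankrd6, an ankyrin repeat gene of Wnt signalling (mm10 chr4:32961483-32961883), scored 22 and 30.6 in WT Treg and 1.63 and 0 in Tconv (4.06, SE 0.47, adjusted p = 2.4e-07). At these 3 sites Tconv scores were close to 0. A site in Bmp2k, a kinase gene, scored 77.0 and 56.1 in WT Treg and 9.80 and 11.4 in Tconv (2.53, SE 0.38, adjusted p = 1.1e-05). Il1r2 encodes the decoy receptor of IL-1, and its site scored 35.4 and 50.02 in WT Treg and 9.80 and 6.82 in Tconv (2.23, SE 0.48, adjusted p = 0.00092). A site 7.02 kb from Nrp1, the gene of the semaphorin receptor neuropilin-1, scored 53.8 and 25.5 in WT Treg and 11.4 and 2.27 in Tconv (2.58, SE 0.58, adjusted p = 0.0016). A site 35.1 kb from Ahr, the aryl hydrocarbon receptor gene, scored 23.2 and 11.2 in WT Treg and 4.90 and 0 in Tconv (2.83, SE 0.78, adjusted p = 0.0091).

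In DKO Treg most of the sites were more open where both factors had been returned. Median scores were 24.3 and 27.6 with both factors, 8.66 and 7.68 with BATF, 6.45 and 7.68 with Foxp3 and 4.22 and 3.91 with mock virus. With both factors 276 sites (61.6%) were higher and 3 (0.67%) lower than with mock virus, with a background of 12.9% higher and 10.5% lower (median log2 change 2.07; all peaks -0.04). Against BATF alone, 176 were higher and 2 lower with both factors (39.3% and 0.446%; background 7.08% and 7.01%; median 1.34). Against Foxp3 alone, 202 were higher and 7 lower (45.1% and 1.56%; background 10.6% and 7.54%; median 1.43). These 3 comparisons share the libraries with both factors. BATF alone gave 47 sites higher than mock virus and none lower (10.5%; background 3.2% higher and 0.291% lower; median 0.63), and Foxp3 alone 25 higher and none lower (5.58%; background 1.01% higher and 0.814% lower; median 0.57). Against BATF alone, the total of 178 was 91 without both factors 2 and 96 without BATF 2.

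The 26-library table includes the DKO libraries, and the counts are therefore also given for the 336 sites that overlap, by at least 0.5 of both peaks, a peak of the 22-library table, which has none of them. With both factors 176 of the 336 (52.4%) were higher and 2 lower than with mock virus, with a background of 11.4% higher and 10.7% lower among peaks that overlap likewise (median log2 change 1.505). Against BATF, 110 were higher and 1 lower (32.7%; background 6.16% higher and 7.22% lower; median 1.02). Against Foxp3, 114 were higher and 7 lower (33.9%; background 9.22% higher and 7.74% lower; median 0.997). Of the other 112 sites, 100 (89.3%) were higher and 1 lower than with mock virus (median 3.98), with a background of 41.3% higher and 5.53% lower among all 3382 peaks outside the 22-library table. These peaks stand only in the table that holds the DKO libraries, so the share is a description. Those 112 had a median score of 14.4 and 13.5 in eTreg, but 35.4 and 43.8 in DKO Treg with both factors.

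**Figure D3:**
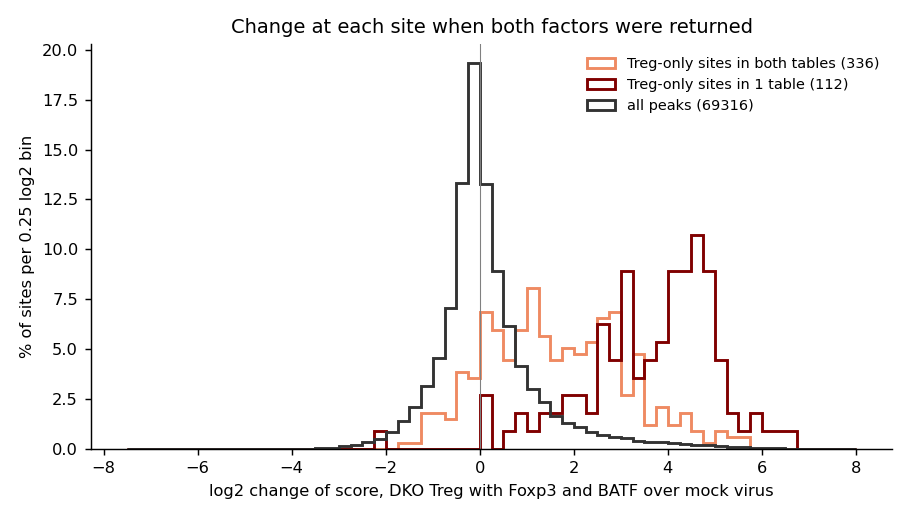
Share of sites (y axis, percent per bin of 0.25) by log2 change in DKO Treg with both factors over mock virus (x axis), for the 336 Treg-restricted effector sites in both deposited tables, the 112 in 1 table, and all 69316 peaks. The medians are 1.505, 3.98 and -0.04.

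Sites gained by both lineages also opened with both factors: 49.9% of them were higher than with mock virus (median 1.30), 22.4% than with BATF (0.66) and 41.7% than with Foxp3 (1.03). BATF alone gave 18.7% higher (0.60) and Foxp3 alone 2.81% (0.23). Of the sites gained by conventional cells alone, 7.26% were higher and 12% lower with both factors than with mock virus (-0.03). Differences between the sets were not tested, and the sets differ in score. Both libraries with both factors lay above the 6 other DKO libraries at 257 of the 448 sites (57.4%; all peaks 14.7%) and at 156 of the 336 (46.4%; peaks that overlap likewise 12.8%). Higher with both factors than in each of the other 3 groups, by the test, were 117 sites (26.1%; all peaks 3.98%), 64 of them among the 336 (19%; peaks that overlap likewise 3.2%).

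**Figure D4:**
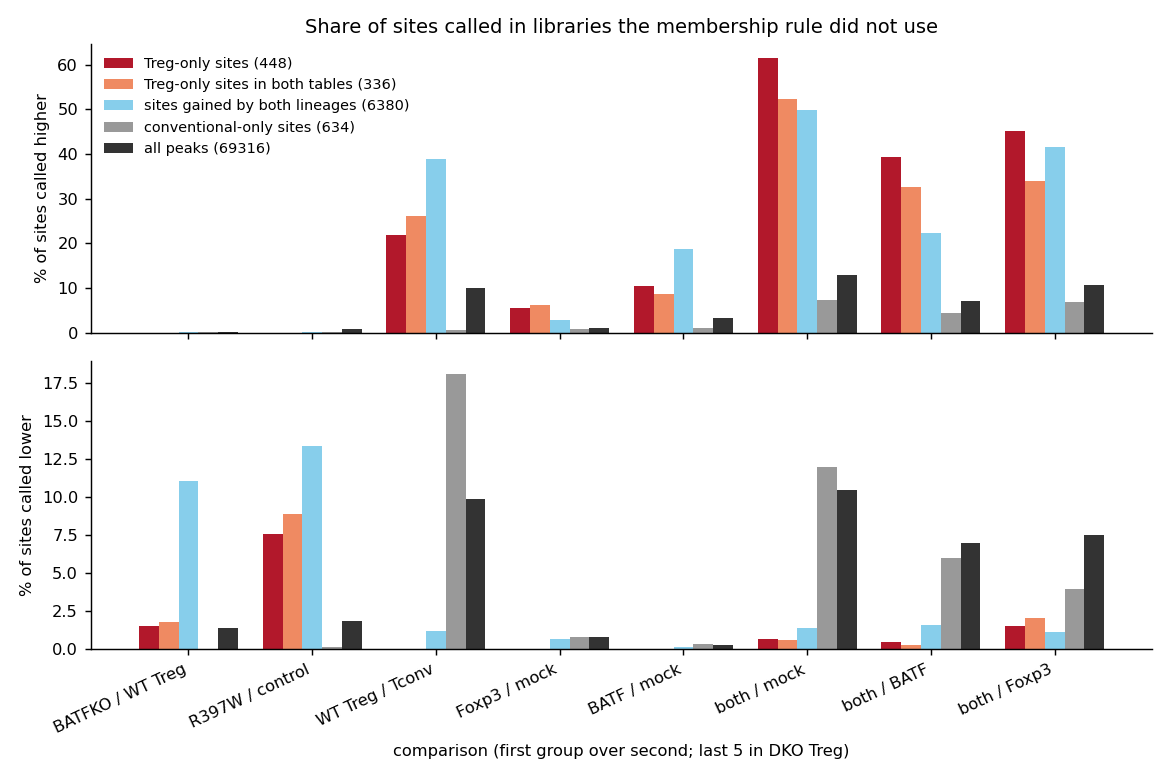
Bars give the percent of sites called higher (top) and lower (bottom) at an adjusted p under 0.05 in 8 comparisons, for all 448 Treg-restricted effector sites, the 336 in both tables, the 6380 sites gained by both lineages, the 634 gained by conventional cells alone, and all peaks. For both factors over mock virus the bars stand at 61.6%, 52.4%, 49.9%, 7.26% and 12.9% higher.

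A site in Mobp, a myelin protein gene (mm10 chr9:120158098-120158498), scored 194 and 359 with both factors, 22.3 and 32.6 with BATF, 8.61 and 7.68 with Foxp3 and 5.27 and 3.91 with mock virus (both over mock log2 change 5.58, SE 0.50, adjusted p = 1.3e-09). A site 5.59 kb from Slc43a3, a nucleobase transporter gene, scored 200 and 294 with both factors, 12.4 and 19.2 with BATF, 40.9 and 50.7 with Foxp3 and 12.7 and 11.7 with mock virus (4.21, SE 0.42, adjusted p = 9.1e-09). A site in Lmo7, a LIM domain gene, scored 78.6 and 99.0 with both factors, 11.1 and 11.5 with BATF, 10.8 and 9.21 with Foxp3 and 7.38 and 2.93 with mock virus (3.96, SE 0.39, adjusted p = 7.1e-09). At these 3 sites both libraries with both factors lay above the 6 others. A site in Ptch1, which encodes the Hedgehog receptor, scored 53.4 and 53.0 with both factors, 7.42 and 2.88 with BATF, 9.68 and 3.07 with Foxp3 and 2.11 and 0.978 with mock virus (both over BATF 3.25, SE 0.47, adjusted p = 2.0e-05). A site in Nid2, a basement membrane gene, scored 86.4 and 108 with both factors, 7.42 and 4.80 with BATF, 3.23 and 6.14 with Foxp3 and 0 and 0.978 with mock virus (6.12, SE 0.64, adjusted p = 2.3e-08 over mock), but it is outside the 22-library table and scored 11.1 and 8.19 in eTreg.

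Of all 448 sites 61.6% were higher with both factors than with mock virus. Among these 276 were 7 of the 7 sites lower in BATFKO Treg (2.54% of the 276), 26 of the 34 lower in Foxp3R397W Treg (76.5%, and 9.42% of the 276) and 57 of the 98 higher in WT Treg than Tconv (58.2%, and 20.7% of the 276). Whether these shares differ from 61.6% was not tested. The E2f7 site had low scores in DKO Treg, with 11.7 and 17.3 with both factors, 1.24 and 1.92 with BATF, 2.15 and 1.54 with Foxp3 and 1.05 and 0 with mock virus (3.41, SE 0.62, adjusted p = 0.00012). The Arhgap20 site scored 5.83 and 6.91 with both factors and 0 and 0 with mock virus, at least 2.09-fold higher against a floor of 3 reads per library. The Trib2 site scored 54.4 and 55.3 with both factors, 9.90 and 7.68 with BATF, 1.08 and 0 with Foxp3 and 2.11 and 5.87 with mock virus (3.60, SE 0.59, adjusted p = 2.9e-05). At 105 sites (23.4%; all peaks 60.2%) no comparison passed the test.

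Of the 7 sites at list genes, those at Il1rl1, Itgae, Itgam, Ahr and Nrp1 were higher with both factors than with mock virus. The site in Il1rl1, which encodes the IL-33 receptor ST2 of tissue Treg, scored 68.9 and 81.8 with both factors, 22.3 and 16.3 with BATF, 10.8 and 6.14 with Foxp3 and 9.49 and 5.87 with mock virus (log2 change 3.16, SE 0.63, adjusted p = 0.00032). The site in Itgae, which encodes the integrin chain CD103, scored 146 and 128 with both factors, 14.8 and 30.7 with BATF, 35.5 and 36.8 with Foxp3 and 16.9 and 2.93 with mock virus (4.04, SE 0.70, adjusted p = 6.0e-05). Both libraries with both factors were the highest at either site, but the Itgae site and the one in Itgam, the CD11b gene (44.7 and 57.6 with both factors, 3.16 and 2.93 with mock virus), are outside the 22-library table. The Ahr site scored 17.5 and 19.6 with both factors, 3.71 and 16.3 with BATF, 0 and 4.61 with Foxp3 and 1.05 and 0.978 with mock virus (3.27, SE 0.78, adjusted p = 0.0021), and the BATF libraries were far apart. The Nrp1 site scored 14.6 and 48.4 with both factors, 16.1 and 12.5 with BATF, 8.61 and 16.9 with Foxp3 and 4.22 and 6.84 with mock virus (2.12, SE 0.58, adjusted p = 0.0072). The Il1r2 site scored 62.1 and 47.2 with both factors, 42.1 and 20.2 with BATF, 52.7 and 66.0 with Foxp3 and 32.7 and 15.6 with mock virus (both over mock 1.22, SE 0.48, adjusted p = 0.063), and its groups with Foxp3 and with both factors overlapped. A site 30.6 kb from Socs2, which encodes an inhibitor of cytokine signalling, scored 0.563 and 1.41 in Foxp3R397W Treg and 10.5 and 5.35 in the control (-2.14, SE 0.54, adjusted p = 0.025).

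Some sites responded to BATF alone. A site in Tnpo1, a nuclear import receptor gene, scored 36.9 and 53.0 with both factors, 30.9 and 26.9 with BATF, 2.15 and 0 with Foxp3 and 0 and 1.96 with mock virus (BATF over mock log2 change 4.12, SE 0.57, adjusted p = 1.6e-05). A site 54.1 kb from Akap6, a protein kinase A anchor gene, scored 42.7 and 59.9 with both factors, 45.8 and 45.1 with BATF, 11.8 and 12.3 with Foxp3 and 6.33 and 9.78 with mock virus (2.39, SE 0.33, adjusted p = 1.1e-05). A site 11.3 kb from Ermp1, a metallopeptidase gene, scored 161 and 233 with both factors, 86.6 and 139 with BATF, 32.3 and 27.6 with Foxp3 and 25.3 and 16.6 with mock virus (2.36, SE 0.33, adjusted p = 1.9e-05). In these 3 sites every BATF library lay above the Foxp3 and mock libraries. At a site 11.2 kb from Chmp7, an ESCRT subunit gene, and one in Csf2rb2, a mouse IL-3 receptor subunit gene, mock libraries had 0 reads; BATF gave at least 7.10-fold and 4.98-fold higher scores against the floor of 3 reads per library. These sites are outside the 22-library table. The count of 47 was 18 without BATF 1, 22 without BATF 2 and 21 without mock 2.

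Fewer sites were called for Foxp3 alone (25) than for BATF alone (47). Among the 336 sites in both deposited tables, Foxp3 gave 21 higher than mock virus (6.25%, background 0.996%, median log2 change 0.54). BATF gave 29 there (8.63%, background 3.07%, median 0.46). Whether the 2 factors differ was not tested. A site in Slc44a1, a choline transporter gene, scored 24.3 and 14.97 with both factors, 4.95 and 2.88 with BATF, 18.3 and 21.5 with Foxp3 and 1.05 and 2.93 with mock virus (Foxp3 over mock log2 change 2.87, SE 0.44, adjusted p = 0.00062). A site 10.7 kb from Slamf7, a SLAM family receptor gene, scored 11.7 and 3.45 with both factors, 1.24 and 0.960 with BATF, 21.5 and 35.3 with Foxp3 and 4.22 and 1.96 with mock virus (2.86, SE 0.61, adjusted p = 0.011). Its scores with both factors lay below those with Foxp3 (both over Foxp3 -1.93, SE 0.61, adjusted p = 0.024). In Foxp3R397W Treg the Slc44a1 site scored 3.94 and 5.65, against 22.5 and 16.7 in the control (-1.83, SE 0.44, adjusted p = 0.018), and the Slamf7 site 1.13 and 2.12, against 14.9 and 15.4 in the control (-2.65, SE 0.61, adjusted p = 0.013). The count of 25 was 3 without Foxp3 2 and 7 without mock 2.

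A few sites were lower with both factors. The Gm52006 site scored 13.6 and 17.3 with both factors, 8.66 and 10.6 with BATF, 49.5 and 47.6 with Foxp3 and 11.6 and 19.6 with mock virus, so that Foxp3 alone gave the highest scores (both over Foxp3 log2 change -1.60, SE 0.36, adjusted p = 0.0019). The other 6 sites lower with both factors than with Foxp3 stood at Palld, Rad21, Mier1, Aig1 and Slamf7, and 1 had no protein-coding gene within 100 kb. Lower with both factors than with mock virus were sites in Kif3a, a kinesin gene (35.9 and 11.5 with both factors, 124 and 99.8 with BATF, 60.2 and 75.2 with Foxp3 and 101 and 88.0 with mock virus; -2.15, SE 0.63, adjusted p = 0.012), in Mier1, a transcriptional regulator gene (4.86 and 1.15 with both factors, 8.66 and 3.84 with BATF, 11.8 and 13.8 with Foxp3 and 9.49 and 9.78 with mock virus; -1.58, SE 0.55, adjusted p = 0.036), and in Ppp3r1, the calcineurin B gene (10.7 and 3.45 with both factors, 11.1 and 13.4 with BATF, 11.8 and 13.8 with Foxp3 and 14.8 and 16.6 with mock virus; -1.21, SE 0.44, adjusted p = 0.043). The Mier1 and Ppp3r1 calls were each lost under 7 of 12 alternatives, edgeR, DESeq2 and a fit of the compared groups alone included, and the Kif3a call under 3, each with 1 library left out. The Kif3a site is outside the 22-library table and scored 5.54 and 2.34 in eTreg.

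Whether the joint effect differed from the sum of the single effects on the log2 scale was tested as an interaction over the 4 DKO groups. At 15 sites (3.35%) it was above the sum and at none below (background 0.586% above and 0.506% below), and among the 336 it was above at 7 (2.08%; background 0.478% above and 0.526% below). The median departure was 0.79 (all peaks 0.03), and 330 of 448 were above 0. A site in Umad1, a gene with a UMA domain, scored 71.9 and 61.0 with both factors, 7.42 and 3.84 with BATF, 3.23 and 0 with Foxp3 and 1.05 and 0.978 with mock virus (departure 3.37, SE 0.71, adjusted p = 0.019). A site 0.345 kb from Chrng, an acetylcholine receptor subunit gene, scored 121 and 128 with both factors, 3.71 and 1.92 with BATF, 7.53 and 4.61 with Foxp3 and 5.27 and 1.96 with mock virus (4.40, SE 0.90, adjusted p = 0.015). At either site the libraries with both factors stood alone above the rest. Over all peaks 406 were above the sum and 351 below, but 186 and 246 with quantile scaling. The count of 15 was 9 without both factors 1, 6 without both factors 2, 1 without BATF 2, 24 without Foxp3 1, 6 without Foxp3 2 and 6 without mock 1. In a limma fit of the 4 groups alone it was 0, and 0 over all peaks too. At an unadjusted p under 0.05 that fit had 95 of the 448 sites and 6566 of all 69316 peaks. The count was 7 with edgeR (background 0.362% above) and 4 with DESeq2 (background 0.361% above).

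**Figure D5:**
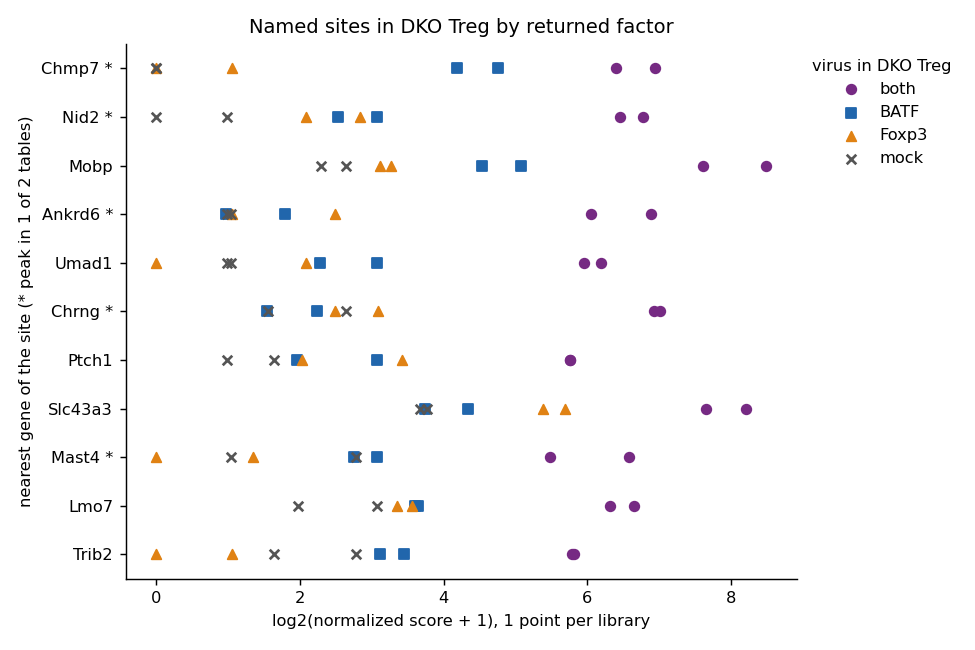
Log2(normalized score + 1), 1 point per library, at named sites in DKO Treg by returned factor (* marks a site outside the 22-library table). The sites were named for a small adjusted p in a comparison with both factors or in the interaction. Only those called higher with both factors than with mock virus are drawn, so sites such as those at Gm52006 and Kif3a are not. At all 11 sites both libraries with both factors lie above the other libraries, which that choice favours. At the Mobp site the pair with both factors scored 194 and 359 and the highest other library 32.6.

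Of the 25 genes with 2 sites, 19 had both sites higher with both factors than with mock virus, 4 had 1 of them higher and 2 neither. Counted singly, 61.6% of the 448 sites and 12.9% of all peaks were higher. No such share was taken for all genes with 2 peaks. The genes were also not split by whether their sites lie outside the 22-library table, where 89.3% of sites were higher. The 2 sites at Ankrd6 differed. Over mock virus, both factors gave a log2 change of 5.46 at the site inside the gene and 0.93 at the site outside it, and over Tconv WT Treg gave -0.08 inside and 4.06 outside. With both factors the 3 sites in Ctsh, a lysosomal protease gene, scored 28.2 and 44.9, 67.0 and 122, and 65.1 and 104, and with mock virus 0 and 1.96, 2.11 and 1.96, and 4.22 and 2.93. All 3 were higher, by 4.41, 4.92 and 4.20 on the log2 scale, and 2 of them are outside the 22-library table. The 3 sites at Hapln1, a hyaluronan link protein gene, were higher by 1.83, 2.44 and 1.57, but at low scores. With both factors they scored 6.80 and 13.8, 12.6 and 5.76, and 3.88 and 4.61. With mock virus they scored 2.11 and 1.96, 2.11 and 0, and 2.11 and 0. The third had 8 reads in all with both factors and 2 with mock virus. The 3 sites in Ank, a pyrophosphate transport gene, passed no test, although in eTreg they scored 39.9 and 30.4, 94.2 and 104, and 21.1 and 25.8.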

How the data were processed

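The authors deposited normalized peak scores, a signal per peak that is never negative, for 26 libraries (69316 peaks) and for 22 libraries (68597 peaks). The submitters' processing notes name mm10, and among tools edgeR 3.36.0 and 3.38.4, DiffBind 3.0.15 and 3.4.11, MACS2 2.2.7.1 and Bowtie2 2.4.1, without roles. Each deposited score was a whole number of reads times 1 factor per library (100% of values whole to within 0.02 reads). By title some samples are ATAC-seq and others omniATAC-seq, and for the 12 libraries whose names differ between tables the protocol is not settled; the lysis and transposition steps differ between protocols. Of the 30 samples, the 13 groups of the 26-library table were used, with the pair named Foxp3WTTreg read as the Foxp3R397W control. The Foxp3KO contrast was not analysed here.

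All 13 groups entered 1 limma 3.58.1 fit in R 4.3.3 (trend and robust options, 13 residual degrees of freedom) on log2(score + 1). Peaks with an adjusted p under 0.05 were called, and the median SE of a log2 change was 0.34. The fit shares 1 spread, although noise between libraries differed. The mean chi-square per peak between a group's 2 libraries (1 under sampling noise alone) was 4.92 to 5.75 in the DKO groups. It was 1.85 to 4.32 in the others. The p-values in DKO Treg may therefore be too small. On simulated data for BATFKO over WT Treg, the test recovered 63 of 100 peaks changed 2-fold and 99 of 100 changed 4-fold, with 12 false calls among 69316 peaks. The changed peaks were drawn only from those with a mean score above the median of all peaks (48.6). Mean scores of the sites had a median of 13.3, so recovery of changes at such low peaks was not measured. Alternatives were edgeR 4.0.16 and DESeq2 1.42.0 on recovered reads, other pseudocounts, a filter, quantile scaling, fits of the compared groups alone, a replicate block, left-out libraries, shifted thresholds and the 22-library table. A peak's gene is the closest protein-coding one by gene body, up to 100 kb (RefSeq GRCm38.p6), with exons and introns not separated. Named sites were those at listed genes, the 10 largest eTreg steps, genes with 3 sites, the sites nearest each threshold and, per comparison and direction, the 5 calls with the smallest adjusted p; the promoter sites were chosen for their sequence, after values were seen, and some sites are not reported here. Sites, rule and lists were chosen with earlier results of these data known.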

Additional observations from a re-analysis of the deposited data

Results flagged for a closer look

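The effect of BATF in DKO Treg differed with and without Foxp3, by the interaction test, at 15 of the 448 sites. All 15 (3.35%) were above the sum, with a background of 0.586% above and 0.506% below. At the 5 of these with the smallest adjusted p, the joint effect exceeded the sum of the single effects by 4.4 at Chrng, 4.20 at Trib2, 4.35 at Mast4, 4.32 at a site inside Ankrd6 (not the one outside it named above) and 3.37 at Umad1 on the log2 scale. The sites at Trib2 and Umad1 overlap a peak of the 22-library table, and those at Chrng, Mast4 and Ankrd6 do not. All 5 calls were lost in a limma fit of the 4 DKO groups alone, where 0 of the 448 sites and 0 of all peaks passed. The Ankrd6 call was also lost with edgeR, and the Umad1 call with edgeR and DESeq2.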

How the results depend on the processing

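No median change of the sites reversed under any alternative run, but in size 44 of the repeats moved and 97 stayed the same. For both factors over mock virus, 225 to 251 of the sites were called with 1 library left out, 235 with quantile scaling, 279 by edgeR and 269 by DESeq2. Leaving out 1 library gave 91 to 121 for both over BATF, 145 to 182 for both over Foxp3, 42 to 74 for WT Treg over Tconv, 18 to 40 for BATF over mock, 3 to 25 for Foxp3 over mock, 1 to 9 for Foxp3R397W Treg, 0 to 3 for BATFKO Treg and 1 to 24 for the interaction. Of the 199 sites by the stricter thresholds, 131 were called for both over mock, 91 for both over BATF, 91 for both over Foxp3, 42 for WT Treg over Tconv, 22 for BATF over mock, 13 for Foxp3 over mock, 21 for Foxp3R397W Treg and 6 for the interaction. Of the 924 by the looser ones, 516, 326, 388, 204, 102, 41, 58 and 29 were called in the same order, and 18 for BATFKO Treg. Shifted thresholds leave the fit unchanged, so the background shares over all peaks are those given in the results. The 336 sites in both tables, a restriction chosen after seeing the data, gave 178 for both over mock, 111 for both over BATF, 121 for both over Foxp3, 29 for BATF over mock and 7 for the interaction. With a mean score of at least 10 (314 sites), 118 were called for both over BATF and 134 for both over Foxp3. Of all peaks so filtered 6.65% and 9.92% were called higher. For both over mock, 9.7% of all peaks were called higher with quantile scaling, 12.8% by edgeR and 12.9% by DESeq2.

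The mutant, single-factor and interaction counts moved most. BATFKO Treg gave 24 with a pseudocount of 5, 2 with 0.5, 28 with quantile scaling and 13 with the compared groups alone. They gave 30 by edgeR, 15 by DESeq2 and 13 of 336 in the 22-library table. In this order 2.14%, 1.25%, 2.93%, 1.84%, 2.54%, 2.18% and 1.95% of all peaks were called lower. Foxp3R397W Treg gave 52 with a pseudocount of 5, 115 with the compared groups alone, 124 by edgeR and 97 by DESeq2. Here 2.85%, 6.01%, 5.98% and 5.06% of all peaks were called lower. WT Treg over Tconv gave 149 of 336 in the 22-library table, where the share of all peaks called higher was 21.6%. Foxp3 over mock gave 4 with quantile scaling, 10 with the compared groups alone and 15 by DESeq2, and BATF over mock gave 19, 24 and 25. In this order 0.251%, 0.271% and 0.71% of all peaks were called higher for Foxp3, and 2.15%, 2.81% and 3.03% for BATF. The interaction gave 53 with a pseudocount of 5, 8 with 0.5, 0 with the 4 groups alone, 7 by edgeR and 4 by DESeq2. Here 1.54%, 0.407%, 0%, 0.362% and 0.361% of all peaks were called above the sum. The cause was not tested. Of the repeats for named sites 582 kept and 89 lost their call.

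Deviations of same-numbered libraries correlated at 0.147 to 0.215 over the 6 pairs of DKO groups, 0.060 to 0.162 over those of BATFKO Treg, WT Treg and Tconv, and 0.327 for Foxp3R397W Treg and the control by column number (their titles share none). With 2 numbers a group and no label that ties them to an animal or day, the pairing is not settled. With the replicate block 28 sites were called for the interaction, 12 in BATFKO Treg and 49 in Foxp3R397W Treg. Of all peaks 1.58% were then above the sum, 2.18% lower in BATFKO Treg and 3.55% lower in Foxp3R397W Treg. Medians of 4 reads per site in the mock libraries limit what low groups can show.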
